A study of Mus musculus with 44 samples.

Results

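Resident Kupffer cell genes were followed through 2 mouse models of non-alcoholic steatohepatitis (NASH). The 9 genes, Clec4f, Timd4, Vsig4, Marco, Csf1r, Adgre1, Cd5l, Cd163 and Folr2, were taken by symbol from a list, and each matched 1 of the 20105 RefSeq transcript identifiers counted in every library. All libraries came from male HEP-INTACT mice, whose hepatocyte nuclei are tagged so that they can be pulled out of a liver homogenate. Mice received the FPC diet for 20 weeks or the choline-deficient diet CDAHFD for 7 weeks, and each study had its own controls on a low-fat diet for the same time. Livers on either NASH diet were divided by histology into mild disease and advanced disease, and marked fibrosis was seen in the advanced group alone. A study thus had 3 advanced, 4 mild and 4 control mice, and every one of the 22 mice gave 1 library of whole liver nuclei (the input) and 1 library of tagged hepatocyte nuclei, 44 libraries in 12 groups. Ages and the promoter that drives the tag were not given in the sources used here, and the mild and advanced mice of a study ate the same diet, so they were sorted by outcome and not assigned.

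Kupffer cells are the macrophages that live in the sinusoids of the liver, where they clear bacteria, dying cells and old red blood cells from portal and arterial blood. In mice they are seeded before birth and renew themselves in place, and they depend on Csf1r signalling and on Notch, BMP and TGF-beta signals from neighbouring endothelial and stellate cells. In mouse models of steatohepatitis part of this population is known to be lost and replaced by cells that come from blood monocytes. Such newcomers are known to take up Kupffer cell genes in stages, with Clec4f early and Timd4 late. Of the 9 genes, Csf1r and Adgre1 are shared by nearly all macrophages, whereas Clec4f is close to specific for Kupffer cells in the mouse.

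The libraries held between 12.1 and 33.1 M counts (median 22.8 M). Mice are named by their labels, which join diet, stage and animal number. Levels are given as CPM, counts scaled to a common library size, after trimmed-mean (TMM) scaling over all 44 libraries, and values after ± are SD for levels and standard errors for log2 fold changes. Unscaled library totals would have moved the median log2 change of all genes in diseased over control livers upward, by 0.44 for advanced FPC whole liver nuclei. Replicates differed by more than counting noise in every pair. In 20 of 22 mice the whole liver and hepatocyte libraries deviated together from their group means. The 2 exceptions were CDAHFD control mice CDAHFD_Control_9862 and CDAHFD_Control_9867 (correlations of -0.23 and -0.30), whose libraries deviated crosswise, so fraction results of that group are given with this in view. All 9 members were tested in whole liver nuclei, and 8 in hepatocyte nuclei, where Folr2 was too low to be tested within a diet.

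In control livers all 9 genes were detected in every whole liver library. Per kilobase of gene, Clec4f was the highest at 2.80 ± 0.129 CPM per kb in FPC controls and 3.36 ± 0.522 CPM per kb in CDAHFD controls. Cd5l stood next at 2.05 ± 0.479 CPM per kb in FPC controls and Csf1r at 1.16 ± 0.141 CPM per kb. Marco and Folr2 were the lowest, at 0.135 ± 0.131 and 0.0635 ± 0.0221 CPM per kb. In advanced FPC livers the order was different: Csf1r led with 3.15 ± 0.491 CPM per kb, ahead of Cd5l with 2.20 ± 0.406, and Cd163 was the lowest with 0.0172 ± 0.00404 CPM per kb.

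Csf1r, the receptor of the macrophage growth factors CSF1 and IL-34, rose in whole liver nuclei under both diets and at both stages. The gene had 32.8, 29.6, 24.8 and 32.1 CPM in control, 107, 97.1, 80.0 and 78.8 CPM in mild and 94.2, 78.6 and 69.3 CPM in advanced FPC livers. On CDAHFD it had 31.9, 28.7, 36.8 and 28.8 CPM in control, 129, 134, 156 and 167 CPM in mild and 120.2, 129 and 112 CPM in advanced CDAHFD livers. Every diseased liver lay above every control of its study, and mild and advanced livers overlapped. The change was log2 fold change 1.41 ± 0.15, adjusted p = 4.2e-06 in advanced and 1.58 ± 0.14, adjusted p = 3.8e-06 in mild FPC livers. In CDAHFD livers it was 1.89 ± 0.13, adjusted p = 1.1e-07 at the advanced and 2.13 ± 0.12, adjusted p = 3.6e-08 at the mild stage. Advanced and mild livers did not differ beyond their spread under FPC (-0.17 ± 0.14, adjusted p = 0.46) or CDAHFD (-0.25 ± 0.13, adjusted p = 0.42). Adgre1, which encodes the adhesion receptor F4/80 used to stain mouse macrophages, followed the same course. It had 60.9, 42.6, 30.0001 and 44.96 CPM in control, 248, 161, 131 and 122 CPM in mild and 142, 135 and 119 CPM in advanced FPC livers. On CDAHFD it had 54.7, 41.4, 60.2 and 57.8 CPM in control, 224, 166, 189 and 197 CPM in mild and 142, 150.1 and 234 CPM in advanced CDAHFD livers. Mild and advanced livers overlapped again, all of them above the controls. The increase was 1.54 ± 0.25 (adjusted p = 0.00021) in advanced FPC and 1.66 ± 0.19 (adjusted p = 8.7e-06) in advanced CDAHFD livers. Across the 22 whole liver libraries Csf1r and Adgre1 had the highest correlation of any member pair (Pearson r = 0.95 of log2 CPM), a description over libraries that share 2 studies and their stages.

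**Figure D1:**
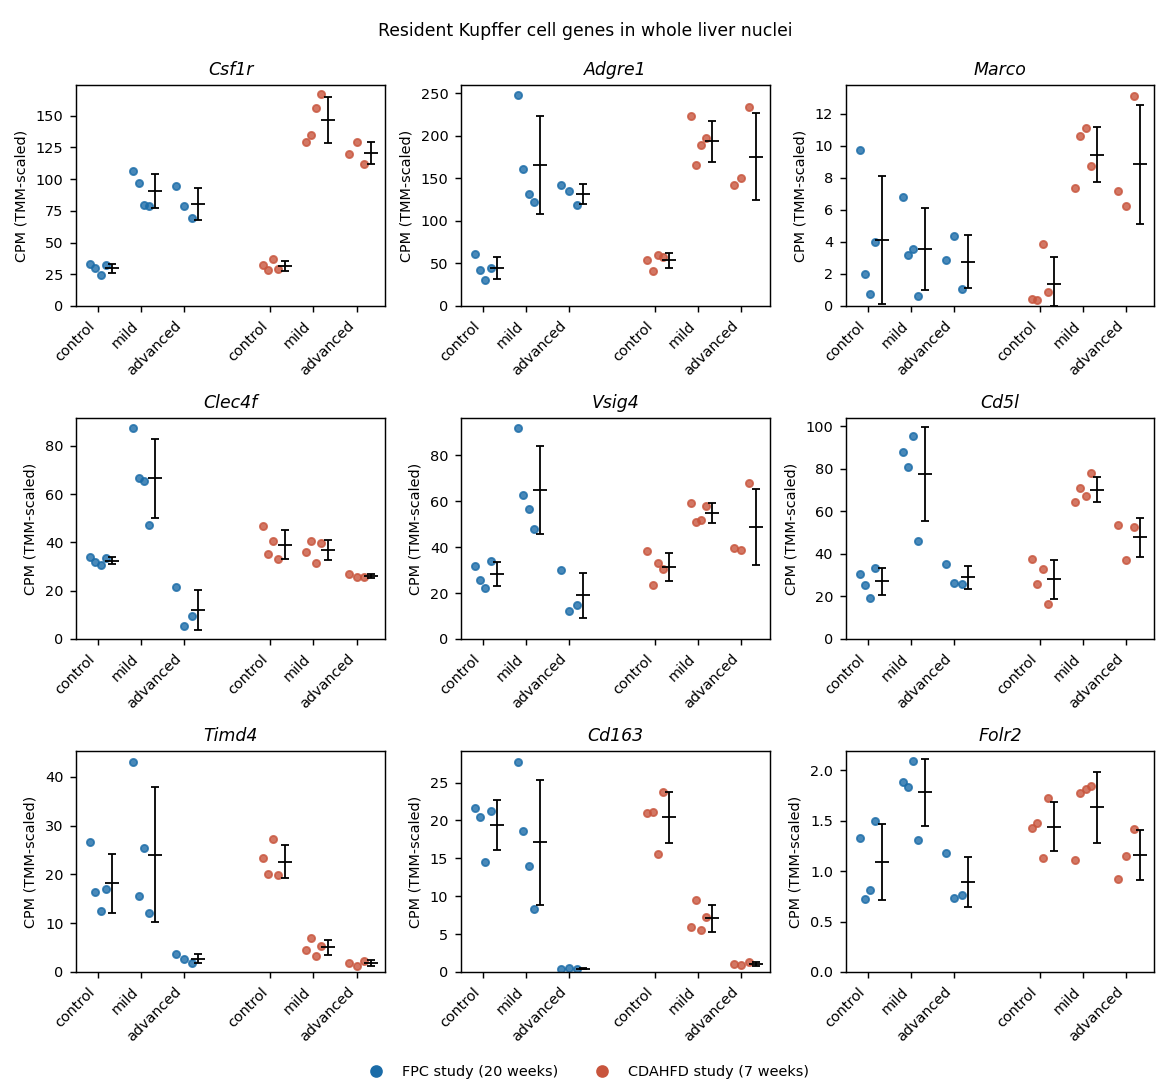
TMM-scaled CPM of each of the 9 genes in whole liver nuclei; points are mice (4 control, 4 mild and 3 advanced per diet study), bars are mean ± SD, and the vertical axes differ. Csf1r and Adgre1 stand above control at both disease stages, whereas Timd4 and Cd163 lie near 0 in the advanced livers of both studies.

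Timd4, a receptor through which resident macrophages take up dying cells, went the other way. In FPC livers it had 26.6, 16.3, 12.5 and 17.1 CPM in control, 43.1, 15.5, 25.5 and 12.1 CPM in mild and 3.75, 2.56 and 1.92 CPM in advanced FPC livers. All 3 advanced livers lay below every control, whereas the mild livers overlapped the controls and mouse FPC_Mild_6825 was the highest of all. In CDAHFD livers it had 23.2, 20.1, 27.2 and 19.9 CPM in control, 4.56, 6.93, 3.33 and 5.28 CPM in mild and 1.92, 1.21 and 2.31 CPM in advanced CDAHFD livers. Here the mild group too lay wholly below the controls, and the advanced group wholly below the mild one. Timd4 fell by 6.81-fold in advanced FPC livers (log2 fold change -2.77 ± 0.46, adjusted p = 0.00028) and by 12.9-fold in advanced CDAHFD livers (-3.69 ± 0.28, adjusted p = 3.5e-07). At the mild stage the fall in CDAHFD livers was -2.25 ± 0.23, adjusted p = 5.7e-06, and the value in mild FPC livers was 0.39 ± 0.37, adjusted p = 0.43. Advanced against mild livers gave -3.15 ± 0.47, adjusted p = 0.00061 under FPC and -1.43 ± 0.27, adjusted p = 0.022 under CDAHFD. The last of these calls was lost without any 1 of mice CDAHFD_Advanced_9845 (adjusted p = 0.064), CDAHFD_Mild_9852 (0.054), CDAHFD_Mild_9853 (0.057) or CDAHFD_Advanced_9896 (0.10), with values of -1.49 to -1.21.

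Cd163, the receptor that clears haptoglobin-haemoglobin complexes, showed the largest change among the 9 members in advanced livers of both studies. It had 21.7, 20.4, 14.6 and 21.2 CPM in control, 27.7, 18.6, 13.9 and 8.24 CPM in mild and 0.407, 0.565 and 0.367 CPM in advanced FPC livers. The advanced FPC values rest on 10, 17 and 13 counts. In the CDAHFD study it had 21.0, 21.2, 15.6 and 23.8 CPM in control, 5.95, 9.48, 5.56 and 7.28 CPM in mild and 0.9998, 0.875 and 1.36 CPM in advanced CDAHFD livers. The advanced groups lay below every other liver of their study, and the mild CDAHFD livers lay between their controls and the advanced livers without overlap. Cd163 was 44.1-fold lower in advanced than in control FPC livers (log2 fold change -5.46 ± 0.44, adjusted p = 6.6e-07) and 19.4-fold lower in advanced CDAHFD livers (-4.28 ± 0.25, adjusted p = 4.5e-08). Mild CDAHFD livers had fallen by 3.05-fold (-1.61 ± 0.19, adjusted p = 2.2e-05), and mild FPC livers stood at -0.21 ± 0.29, adjusted p = 0.59. Advanced livers were lower than mild ones under FPC (-5.26 ± 0.44, adjusted p = 1.4e-05) and under CDAHFD (-2.67 ± 0.25, adjusted p = 4e-04). Timd4 and Cd163 correlated with each other (Pearson r = 0.91 over the 22 whole liver libraries) and inversely with Csf1r (-0.61 and -0.53), again as a description.

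Since Timd4 and Cd163 fell together, the 250 bases before the RefSeq start of each are shown beside those of Clec4f, which fell less (RefSeq promoter table, GRCm38.p6, 5′ to 3′ on the gene's strand). Capitals mark a word of the kind bound by MAF transcription factors, which macrophages use.
Timd4, chr11:46810549-46810798, plus strand: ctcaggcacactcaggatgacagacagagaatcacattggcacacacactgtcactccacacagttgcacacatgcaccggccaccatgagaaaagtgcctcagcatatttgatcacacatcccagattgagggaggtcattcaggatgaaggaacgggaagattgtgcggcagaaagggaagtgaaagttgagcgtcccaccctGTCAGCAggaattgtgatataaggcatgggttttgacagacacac
Cd163, chr6:124304401-124304650, plus strand: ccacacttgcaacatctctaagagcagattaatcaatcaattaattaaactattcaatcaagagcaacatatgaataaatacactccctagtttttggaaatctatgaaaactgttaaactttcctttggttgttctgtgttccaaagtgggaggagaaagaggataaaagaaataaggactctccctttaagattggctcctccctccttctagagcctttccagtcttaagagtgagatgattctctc
Clec4f, chr6:83656117-83656366, minus strand: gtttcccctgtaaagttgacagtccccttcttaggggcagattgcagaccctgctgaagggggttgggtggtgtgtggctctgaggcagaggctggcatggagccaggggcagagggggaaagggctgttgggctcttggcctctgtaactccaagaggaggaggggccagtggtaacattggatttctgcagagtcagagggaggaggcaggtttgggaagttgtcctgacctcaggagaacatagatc
Timd4 holds the MAF word TGCTGAC on the other strand, 45 bases before the start, in the letters shown in capitals. This word and the PU.1 word GAGGAA were searched on both strands in windows of 250 bases before to 50 bases after the start, and they were chosen after these sequences had been seen. TGCTGAC occurred in 1 of the 7 members with a usable promoter entry and in 4.67% of all 32851 promoters. GAGGAA occurred in 3 of the 7 (Cd5l, Marco and Vsig4) and in 28.3% of all promoters. Neither was found in the Cd163 and Clec4f windows. A match describes letters only and shows no binding.

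Clec4f, a galactose-binding lectin of Kupffer cells, moved in opposite directions at the 2 stages of the FPC study. It had 33.8, 32.1, 30.5 and 33.4 CPM in control, 87.1, 66.6, 65.5 and 47.0 CPM in mild and 21.4, 5.29 and 9.63 CPM in advanced FPC livers. All mild livers lay above the controls and all advanced livers below them. It rose in mild livers (log2 fold change 1.01 ± 0.33, adjusted p = 0.027) and fell in advanced livers (-1.45 ± 0.37, adjusted p = 0.0054), and the step between advanced and mild was -2.46 ± 0.39, adjusted p = 0.00092. The increase at the mild stage missed the threshold without any 1 of mice FPC_Control_6816 (adjusted p = 0.053), FPC_Mild_6825 (0.094), FPC_Control_6852 (0.060), FPC_Mild_6886 (0.051), FPC_Mild_6887 (0.050, above the threshold before rounding) or FPC_Control_6952 (0.066), with log2 fold changes of 0.81 to 1.03. In CDAHFD livers Clec4f had 46.9, 35.3, 40.4 and 33.3 CPM in control, 35.8, 40.4, 31.5 and 39.5 CPM in mild and 27.0, 25.8 and 25.6 CPM in advanced CDAHFD livers. The advanced livers lay below all others of that study, and mild and control livers overlapped. The advanced group was lower than controls by -0.62 ± 0.14, adjusted p = 0.0018, a call that ended with unscaled library totals (-0.16, adjusted p = 0.33, chosen after seeing the data). Mild CDAHFD livers stood at -0.16 ± 0.13, adjusted p = 0.3 against controls, and at 0.22 with unscaled library totals.

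Vsig4, a complement receptor that captures opsonised bacteria, and Cd5l, a secreted scavenger-receptor protein of tissue macrophages, were highest at the mild stage of the FPC study. In FPC livers Vsig4 had 31.6, 25.6, 22.1 and 33.9 CPM in control, 92.0, 62.9, 56.7 and 47.7 CPM in mild and 30.2, 12.2 and 14.7 CPM in advanced FPC livers. Cd5l had 30.4, 25.3, 19.1 and 33.5 CPM in control, 88.1, 80.8, 95.6 and 46.0 CPM in mild and 35.2, 26.1 and 25.7 CPM in advanced FPC livers. For both genes the mild livers lay above every control, and the advanced livers overlapped the controls. In mild FPC livers Vsig4 rose (log2 fold change 1.17 ± 0.28, adjusted p = 0.0057), and so did Cd5l (1.496 ± 0.23, adjusted p = 0.00028). Advanced FPC livers had less of both than mild ones, by -1.77 ± 0.32, adjusted p = 0.0021 for Vsig4 and -1.42 ± 0.26, adjusted p = 0.002 for Cd5l. Against controls the advanced values were -0.60 ± 0.31, adjusted p = 0.11 for Vsig4 and 0.07 ± 0.25, adjusted p = 0.82 for Cd5l. Mouse FPC_Advanced_6826 had the highest Vsig4 of the advanced FPC livers, and without it Vsig4 was lower than in controls (-1.11, adjusted p = 0.0039).

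On CDAHFD the 2 genes stayed above their controls in more livers. Vsig4 had 38.1, 23.5, 33.1 and 30.3 CPM in control, 59.5, 51.0, 51.6 and 58.1 CPM in mild and 39.7, 38.9 and 67.8 CPM in advanced CDAHFD livers. Cd5l had 37.4, 25.9, 32.8 and 16.3 CPM in control, 64.4, 71.0, 67.4 and 77.8 CPM in mild and 53.4, 37.3 and 52.9 CPM in advanced CDAHFD livers. All mild livers lay above the controls for both genes, and so did the advanced livers for Vsig4, while 1 advanced liver was within the control range for Cd5l. Vsig4 rose in mild (0.74 ± 0.19, adjusted p = 0.0055) and advanced livers (0.59 ± 0.20, adjusted p = 0.023), and Cd5l in mild (1.2403 ± 0.21, adjusted p = 0.00039) and advanced livers (0.72 ± 0.23, adjusted p = 0.016). The advanced Vsig4 call was lost without mouse CDAHFD_Advanced_10104 (0.29, adjusted p = 0.16), without mouse CDAHFD_Control_9867 (0.47, 0.057) or with only the control and advanced libraries fitted (0.57, 0.059). The advanced Cd5l call was lost without mouse CDAHFD_Advanced_10104 (0.66, 0.056) or CDAHFD_Advanced_9845 (0.64, 0.059), and lay at 0.050 with only both groups fitted. Advanced against mild CDAHFD livers gave -0.14 ± 0.20, adjusted p = 0.86 for Vsig4 and -0.52 ± 0.23, adjusted p = 0.33 for Cd5l, and the highest Vsig4 value of that study was that of advanced mouse CDAHFD_Advanced_10104.

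Marco, a scavenger receptor for bacteria and particles, rose under CDAHFD. It had 0.445, 0.358, 3.85 and 0.862 CPM in control, 7.37, 10.6, 11.1 and 8.72 CPM in mild and 7.19, 6.24 and 13.1 CPM in advanced CDAHFD livers. All diseased livers lay above all controls, among which mouse CDAHFD_Control_10110 stood apart. The control values rest on 10, 8, 68 and 22 counts. The increase was 2.70 ± 0.62, adjusted p = 0.0033 in advanced and 2.76 ± 0.60, adjusted p = 0.0026 in mild livers. In the FPC study Marco had 9.76, 2.001, 0.741 and 4.02 CPM in control, 6.83, 3.17, 3.56 and 0.634 CPM in mild and 2.85, 4.35 and 1.04 CPM in advanced FPC livers. These groups overlapped, and the log2 fold changes were -0.61 ± 0.84, adjusted p = 0.56 in advanced and -0.21 ± 0.77, adjusted p = 0.85 in mild livers. Folr2, a folate receptor of tissue-resident macrophages, lay between 0.725 and 2.09 CPM in all 22 whole liver libraries. Neither disease stage differed from control beyond the spread for Folr2 under FPC (advanced -0.29 ± 0.32, adjusted p = 0.46; mild 0.71 ± 0.29, adjusted p = 0.064) or CDAHFD (advanced -0.35 ± 0.27, adjusted p = 0.28; mild 0.09 ± 0.25, adjusted p = 0.78). It was lower in advanced than in mild FPC livers (-1.01 ± 0.31, adjusted p = 0.036). That call was lost without mouse FPC_Mild_6825 (-0.96, 0.054), FPC_Advanced_6880 (-0.87, 0.14), FPC_Mild_6886 (-0.99, 0.070), FPC_Mild_6887 (-0.92, 0.091) or FPC_Advanced_6904 (-0.91, 0.12), and with unscaled library totals (-0.86, 0.058), while the mild increase passed without mouse FPC_Mild_6888 (0.85, 0.044) or FPC_Control_6953 (0.88, 0.036) and with unscaled totals (adjusted p = 0.011).

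Counted over the 9 members, advanced against control FPC livers gave 2 higher and 3 lower genes, where 59.3% of all 14129 genes tested were called (31.3% higher and 28.0% lower). Mild against control FPC livers gave 5 higher and none lower among the members (43.2% of all genes called, 25.0% higher and 18.2% lower). Advanced against mild FPC livers gave none higher and 6 lower, where 22.3% of all genes were called (13.3% higher and 8.98% lower). In CDAHFD livers the members gave 5 higher and 3 lower at the advanced stage (55.7% of 14098 genes called, 29.7% higher and 25.9% lower) and 5 higher and 2 lower at the mild stage (52.2% called, 27.7% higher and 24.5% lower). Advanced against mild CDAHFD livers gave 2 lower members, Timd4 and Cd163, where 1.88% of all genes were called (0.830% higher and 1.05% lower). The members' median log2 fold change was -0.60 in advanced and 1.01 in mild FPC livers, and 0.59 in advanced and 0.74 in mild CDAHFD livers, while that of all genes lay between -0.01 and 0.02. Against controls, 5 of 9 members were called at each FPC stage, near the share called among all genes at the advanced stage, whereas 8 of 9 and 7 of 9 were called in advanced and mild CDAHFD livers. Whether the members exceed that share was not tested. In bulk nuclei, fewer cells of a type and less RNA per cell cannot be told apart.

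**Figure D2:**
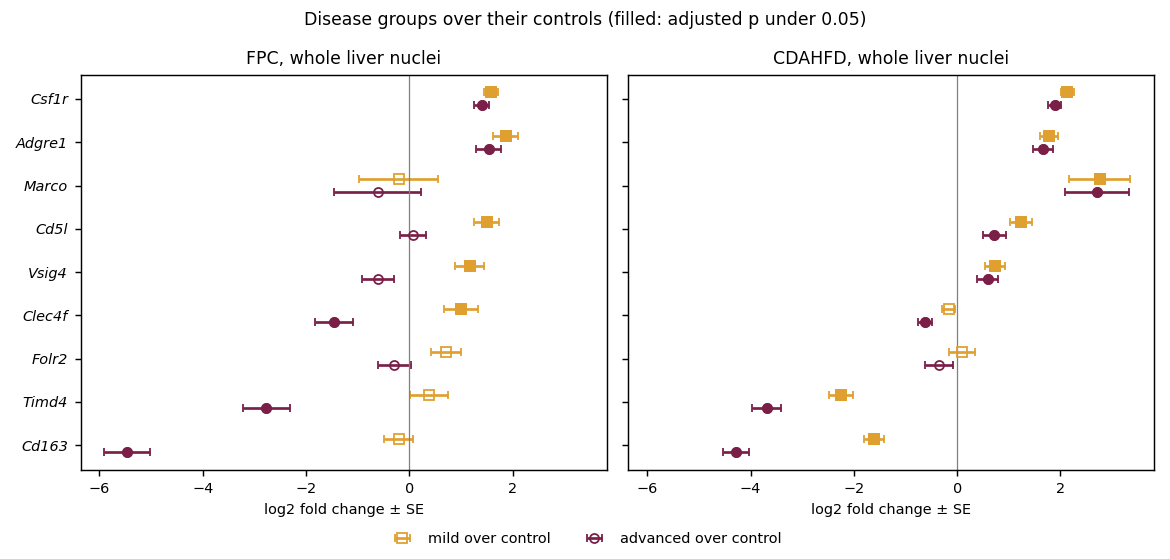
Log2 fold change ± SE of the 9 genes in whole liver nuclei of mild (squares) and advanced (circles) livers over the controls of the same study, FPC on the left and CDAHFD on the right; filled symbols passed an adjusted p of 0.05. Csf1r and Adgre1 lie to the right of 0 at every point, and Cd163 reaches -5.46 in advanced FPC and -4.28 in advanced CDAHFD livers.

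A ratio to Csf1r in the same library does not depend on scaling between libraries and sets each gene against a receptor that all macrophages share. Timd4 over Csf1r was 0.600 ± 0.143 in control, 0.259 ± 0.123 in mild and 0.0333 ± 0.00608 in advanced FPC livers. In CDAHFD livers it was 0.714 ± 0.0223 in control, 0.0350 ± 0.0126 in mild and 0.0153 ± 0.00568 in advanced livers. Cd163 over Csf1r was 0.650 ± 0.0437 in control, 0.183 ± 0.0639 in mild and 0.00560 ± 0.00146 in advanced FPC livers. Both ratios were thus lower in mild FPC livers than in FPC controls, although the levels of the 2 genes there overlapped the controls. Clec4f over Csf1r was 1.10 ± 0.0920 in control, 0.729 ± 0.108 in mild and 0.144 ± 0.0800 in advanced FPC livers, and 1.237 ± 0.162, 0.254 ± 0.0439 and 0.217 ± 0.0156 at the same stages under CDAHFD. Adgre1 over Csf1r stayed between 1.34 ± 0.264 in mild CDAHFD livers and 1.80 ± 0.358 in mild FPC livers over all 6 groups. The ratios were not tested.

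**Figure D3:**
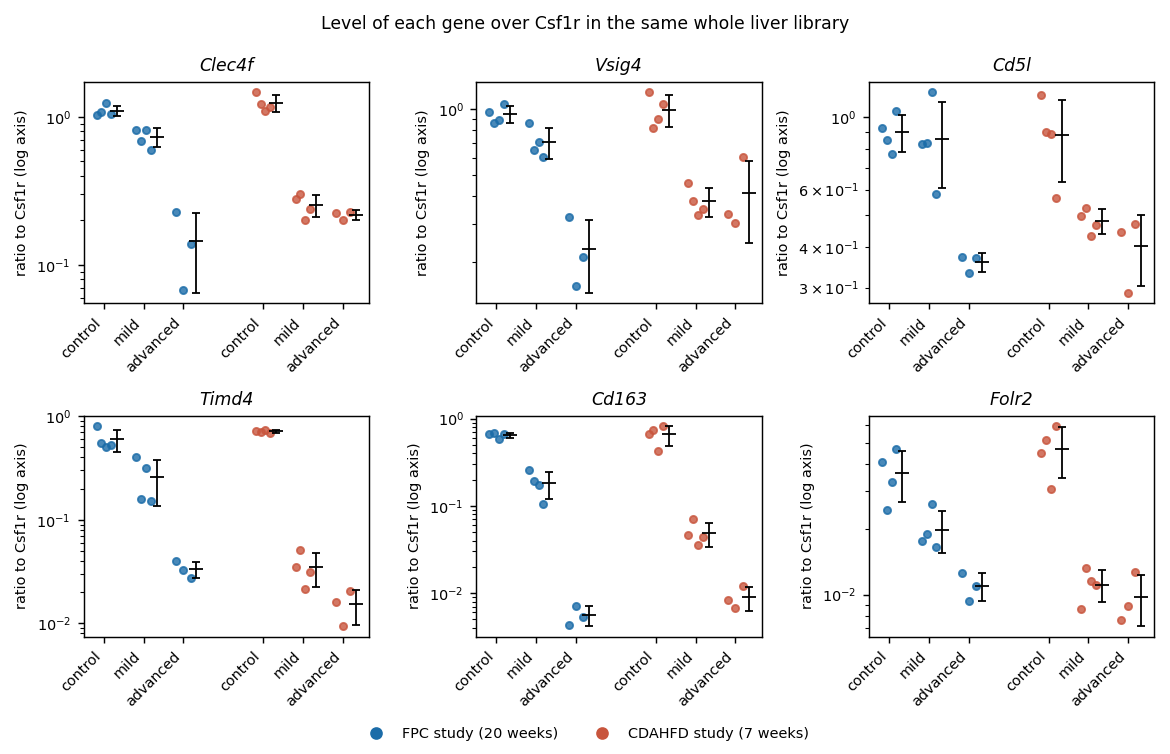
CPM of 6 genes divided by CPM of Csf1r in the same whole liver library, on log axes; points are mice and bars are mean ± SD. Timd4 and Cd163 ratios stand near 0.6 to 0.7 in controls and at or below 0.04 in advanced livers.

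Genes shared by all macrophages and those of recruited cells mostly rose, as Csf1r and Adgre1 did, whereas Timd4 and Cd163 fell in advanced livers. All 8 pan-macrophage markers rose in advanced livers of both diets, and their summed level was 332 to 396 CPM in advanced against 55.0 to 97.5 CPM in control FPC livers, and 372 to 537 against 82.9 to 98.6 CPM under CDAHFD. Of 12 markers of recruited and lipid-associated macrophages, 12 rose in advanced FPC and 11 in advanced CDAHFD livers, with summed levels of 247 to 311 CPM in advanced against 17.9 to 19.3 CPM in control FPC livers and 736 to 831 against 21.3 to 47.4 CPM under CDAHFD. Among them were the lipid receptor Trem2 (5.12 ± 0.31 under FPC and 5.71 ± 0.33 under CDAHFD) and the lysosomal glycoprotein Gpnmb (6.71 ± 0.34 and 9.51 ± 0.27). At the mild stage 11 of these 12 markers rose under each diet. None of the 20 markers of these 2 lists was at 0 in any whole liver group. Spp1 stands on the recruited macrophage list and also among the cholangiocyte markers below, so it enters the counts and sums of both. The recruited sum thus cannot be read as macrophages alone.

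Markers of other liver cells also moved with disease. Of 8 hepatocyte markers, 6 fell in advanced FPC and 7 in advanced CDAHFD livers, with a summed level of 3359 to 5547 CPM in advanced against 9674 to 17386 CPM in control FPC livers. All 6 cholangiocyte markers rose under both diets, to 678 to 862 CPM in advanced against 43.4 to 60.8 CPM in control FPC livers. These 6 include Spp1, which the recruited macrophage list also holds. Of 6 dendritic cell markers, 5 rose and none fell in advanced FPC livers, and 5 rose and 1 fell (Zbtb46, -0.35 ± 0.11) in advanced CDAHFD livers. Lymphocyte markers rose in 7 of 10 under FPC and 6 of 10 under CDAHFD, and none fell. Of 6 neutrophil markers, the filter on low counts left 2 under FPC and 4 under CDAHFD, and these rose. A gene near 0 in controls passes that filter only where diseased livers are high. The counts thus cannot show how the neutrophil list as a whole moved. Ly6g and Mpo were at 0 in control and advanced FPC livers, Ly6g also in mild FPC livers, and Mpo in CDAHFD controls. Endothelial markers were mixed, with 3 higher and 5 lower of 11 under FPC and 3 higher and 7 lower under CDAHFD, and so were stellate cell markers, with 7 higher and 2 lower of 10 under FPC and 5 higher and 3 lower under CDAHFD. The part of these cells in the members' results was not tested.

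The effect of the 2 diets on the members was set against each other by subtracting the change under FPC from that under CDAHFD, each over its own controls. At the mild stage Timd4 fell more under CDAHFD (-2.64 ± 0.47 on the log2 scale, adjusted p = 0.0027), with a mean of 5.02 ± 1.504 CPM in mild against 22.6 ± 3.40 CPM in control CDAHFD livers and 24.0 ± 13.9 against 18.1 ± 6.02 CPM in the FPC study. Cd163 differed in the same direction (-1.41 ± 0.37, adjusted p = 0.031). These 2 were the members called, where 5.01% of 14413 genes were called (2.69% positive and 2.32% negative). The Cd163 difference missed the threshold without any 1 of mice FPC_Mild_6825, FPC_Mild_6886, FPC_Control_6952, CDAHFD_Mild_9852, CDAHFD_Mild_9894, CDAHFD_Mild_10102 or CDAHFD_Control_10113 (-1.07 to -1.41, adjusted p from 0.051 to 0.070). At the advanced stage no member differed between diets at an adjusted p of 0.05 (4.67% of all genes called, 1.70% positive and 2.97% negative). The largest estimate there was that of Marco (3.30 ± 1.15, adjusted p = 0.11; 4.51, 0.028 without mouse CDAHFD_Control_10110), followed by Vsig4 (1.19 ± 0.40, adjusted p = 0.093; 1.69, 0.0099 without mouse FPC_Advanced_6826). Clec4f stood at 0.82 ± 0.40, adjusted p = 0.28 and passed without mouse FPC_Advanced_6826 (1.51, 0.0072). The diets also differ in duration, 20 against 7 weeks, so diet and time cannot be told apart.

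In tagged hepatocyte nuclei the 9 genes were present at a fraction of their whole liver level. In FPC mice the summed level of the 9 genes in hepatocyte nuclei, as a percentage of that in whole liver nuclei of the same mouse, was 8.12, 9.54, 11.1 and 10.6% in controls, 22.6, 10.8, 16.8 and 17.3% in mild and 13.9, 13.8 and 15.3% in advanced mice. In CDAHFD mice it was 3.60, 6.64, 8.67 and 5.21% in controls, 9.23, 11.2, 10.1 and 10.8% in mild and 12.2, 15.5 and 11.3% in advanced mice. All diseased CDAHFD mice lay above their controls, and in the FPC study the advanced mice did, while 1 mild mouse was within the control range. The advanced FPC sum did not stand for every member. Csf1r had a mean of 23.8 ± 7.55% there against 11.4 ± 2.47% in controls. The means of Timd4, Vsig4 and Adgre1 were also higher than in controls, and those of Clec4f, Marco and Cd5l were lower. Cd163 had a higher mean (13.3 ± 16.8 against 9.61 ± 4.34%) but a lower median (7.81 against 8.75%). Its advanced FPC values rest on 1, 4 and 0 hepatocyte counts. Folr2 had a lower mean on 4, 2 and 0 counts, so neither gene gives a direction. In mouse FPC_Advanced_6880, Csf1r gave 505 of the 802 hepatocyte counts of the 9 genes. The same percentage for 11 endothelial markers was 10.6 ± 0.486% in control, 18.9 ± 5.08% in mild and 9.94 ± 2.28% in advanced FPC mice. It was 10.6 ± 1.81%, 12.2 ± 0.696% and 11.2 ± 1.25% at the same stages under CDAHFD. The fraction tests took both libraries of a mouse as independent, and the shares of all genes called depend on this. With the mouse as a block more genes were called in every FPC group. Tested gene by gene, all 9 members were lower in the tagged than in the input nuclei of FPC controls, where 17.5% of all genes were called (1.35% higher and 16.2% lower). The same held for all 9 in CDAHFD controls (31.0% of all genes called, 14.6% higher and 16.4% lower), in mild CDAHFD mice (50.7%, with 23.1% higher and 27.6% lower) and in advanced CDAHFD mice (43.2%, with 20.1% higher and 23.0% lower). In mild FPC mice (26.2% called, 7.19% higher and 19.0% lower) 8 of 9 were lower and Marco stood at -2.04 ± 0.84, adjusted p = 0.08 (0.00022 with the mouse as a block). In advanced FPC mice (22.5% called, 4.83% higher and 17.7% lower) 8 of 9 were lower and Cd163 stood at -2.71 ± 1.02, adjusted p = 0.063 (0.015 with the block). The members' median log2 difference ran from -3.92 in CDAHFD controls to -2.53 in mild FPC mice, and that of all genes from 0.04 to 0.20.

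**Figure D4:**
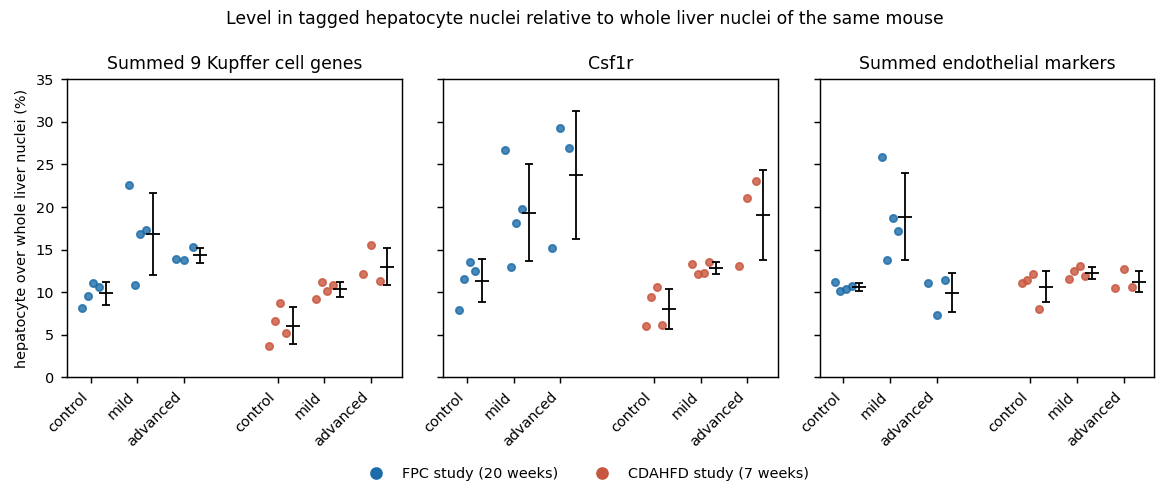
Level in tagged hepatocyte nuclei as a percentage of the level in whole liver nuclei of the same mouse, for the summed 9 genes, for Csf1r and for 11 summed endothelial markers; points are mice and bars are mean ± SD. Csf1r reaches 13.1 to 23.0% in advanced CDAHFD mice, above the 5.98 to 10.6% of their controls, while endothelial markers stay between 8.02 and 13.1% in all CDAHFD mice.

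The gap between fractions narrowed for 3 members in advanced CDAHFD mice. For Csf1r the hepatocyte percentage was 13.1, 21.1 and 23.0% in advanced and 5.98, 9.41, 10.6 and 6.10% in control mice, for Adgre1 13.0, 10.3 and 6.81% in advanced and 3.40, 5.91, 4.72 and 3.21% in control mice, and for Vsig4 7.94, 17.6 and 8.21% in advanced and 2.50, 6.03, 4.29 and 3.54% in control mice. In all 3 the advanced mice lay above the controls. The interaction of fraction and disease was 1.21 ± 0.30 for Csf1r (adjusted p = 0.012), 1.15 ± 0.24 for Adgre1 (0.0042) and 1.43 ± 0.34 for Vsig4 (0.0095), where 10.2% of all genes were called, 3.63% with a positive and 6.62% with a negative sign. Without mouse CDAHFD_Advanced_10104 the Csf1r value was 1.07 (0.071), and without mouse CDAHFD_Advanced_9896 the Vsig4 value was 1.05 (0.087). Of the other 6 members, Clec4f passed without mouse CDAHFD_Control_10110 (1.16, 0.031), and Cd163 passed with DESeq2 (1.66, 0.047). In the FPC study none of the 9 passed (3.82% of all genes called, 2.83% positive and 0.984% negative, and 1 of the 9 with DESeq2 or with the mouse as a block). Csf1r there stood at 1.06 ± 0.33, adjusted p = 0.084, and passed with the block (0.031), with DESeq2 (1.14, 0.029), with unscaled totals (1.18, 0.041) and without mouse FPC_Advanced_6826 (1.37, 0.041).

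Within hepatocyte nuclei the disease changes of the members had mostly the signs seen in whole liver nuclei. Csf1r rose in advanced FPC (2.61 ± 0.29, adjusted p = 9.3e-06) and CDAHFD mice (3.19 ± 0.28, adjusted p = 2.7e-06), and Adgre1 rose too (1.995 ± 0.37 and 2.91 ± 0.17). Cd163 fell in advanced FPC (-4.51 ± 0.88, adjusted p = 0.00095) and CDAHFD mice (-2.56 ± 0.60, adjusted p = 0.003). The advanced Cd163 values rest on 1, 4 and 0 counts under FPC and 5, 4 and 2 counts under CDAHFD. Timd4 fell in advanced CDAHFD mice (-3.94 ± 0.75, adjusted p = 0.00077), with 0, 0.0699 and 0.120 CPM in advanced against 0.703, 0.902, 2.30 and 1.03 CPM in control mice. The advanced Timd4 values rest on 0, 1 and 3 counts. In advanced FPC mice Timd4 stood at -2.09 ± 0.76, adjusted p = 0.038, which was lost without mouse FPC_Control_6816 (0.078), FPC_Control_6852 (0.051), FPC_Advanced_6880 (0.12), FPC_Advanced_6904 (0.11) or FPC_Control_6953 (0.072) and with unscaled totals (0.065). Of 8 members tested, 2 rose and 2 fell in advanced FPC mice (46.9% of all genes called, 26.5% higher and 20.4% lower) and 5 rose in mild FPC mice (33.1%, with 21.8% higher and 11.3% lower). In CDAHFD mice 5 rose and 2 fell at the advanced stage (59.5%, with 30.3% higher and 29.2% lower), and 5 rose and 1 fell at the mild stage (56.3%, with 29.6% higher and 26.7% lower). Marco was among the 5 at both stages (4.36 ± 0.46 advanced and 3.72 ± 0.45 mild). Its CDAHFD control values rest on 3, 1, 1 and 1 counts. A gene so low in controls passes the filter on low counts only where diseased mice are high. The level of free or co-purified macrophage RNA in this fraction was not measured, so these values do not place the genes in hepatocytes.

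Other genes of resident Kupffer cells and of their surroundings were counted from lists. Of all genes tested, 31.3% rose and 28.0% fell in advanced FPC livers, and 29.7% rose and 25.9% fell in advanced CDAHFD livers. Whether any gene or marker list departs from these shares was not tested. Of 12 further genes described in mouse Kupffer cells, 11 were tested in whole liver nuclei. The summed level of the 12 was 842 ± 167 CPM in whole liver and 868 ± 301 CPM in hepatocyte nuclei of FPC controls. In CDAHFD controls it was 861 ± 318 and 814 ± 361 CPM. Gene by gene, 8 of the 11 were lower in hepatocyte nuclei of FPC controls and 7 in those of CDAHFD controls. The list thus cannot be read as Kupffer cells alone. In advanced FPC livers 1 of the 11 rose and 3 fell (median -0.14), and in advanced CDAHFD livers 3 rose and 3 fell (median 0.00). The langerin gene Cd207 stood at 1.43 ± 0.59, adjusted p = 0.052 under FPC and rose under CDAHFD (2.67 ± 0.49, adjusted p = 5e-04), and the transporter Slc16a9 rose under both (0.77 ± 0.16 and 0.72 ± 0.22). C6, a complement component that hepatocytes also make, fell under both (-1.82 ± 0.42 and -1.05 ± 0.39). Paqr9 fell under CDAHFD (-1.78 ± 0.42, adjusted p = 0.0032) and stood at -0.43 ± 0.31, adjusted p = 0.25 under FPC. At the mild stage under FPC 6 of the 11 rose and none fell (median 0.61).

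Among 10 transcription factors known from Kupffer cells, 4 rose and 3 fell in advanced FPC and 3 rose and 1 fell in advanced CDAHFD livers (medians 0.54 and 0.30). The macrophage regulators Irf8 (2.20 ± 0.11 and 2.27 ± 0.12), Spi1, which encodes PU.1 (2.13 ± 0.21 and 2.44 ± 0.15), and Zeb2 (1.42 ± 0.22 and 1.72 ± 0.16) rose under both diets. Rxra, a nuclear receptor partner that hepatocytes express strongly, fell under both (-1.13 ± 0.14 and -0.70 ± 0.19). Of 10 niche signals, 7 rose and 1 fell under FPC and 4 rose and 1 fell under CDAHFD (medians 0.62 and 0.29). The Csf1r ligands Csf1 (1.33 ± 0.17 and 1.21 ± 0.15) and Il34 (1.87 ± 0.25 and 1.82 ± 0.20) rose, as did Tgfb1 (1.66 ± 0.19 and 1.92 ± 0.12) and the BMP receptor gene Acvrl1 (1.88 ± 0.17 and 1.44 ± 0.18). The gene that fell was the same under both diets, Bmp10, a ligand of that receptor, at -2.52 ± 0.43, adjusted p = 0.00025 under FPC and -1.59 ± 0.56, adjusted p = 0.028 under CDAHFD. Bmp10 was named after its values were seen.

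Lists of genes for functions that the members serve were counted in the same way. Complement and opsonin genes of macrophages rose in 7 of 8 in advanced FPC and 8 of 8 in advanced CDAHFD livers (medians 2.47 and 2.68), led by the complement receptor chains Itgam (3.49 ± 0.18 and 4.23 ± 0.19) and Itgb2 (2.46 ± 0.19 and 3.28 ± 0.22), the anaphylatoxin receptor C3ar1 (2.81 ± 0.23 and 3.30 ± 0.21) and the C1q chain C1qb (2.16 ± 0.19 and 2.07 ± 0.19). Scavenger and efferocytosis receptors and their ligands rose in 5 and fell in 0 of 9 under FPC, and rose in 6 and fell in 1 of 9 under CDAHFD (medians 0.74 and 0.89). The fatty acid receptor Cd36 rose by 1.58 ± 0.34 under FPC and 3.55 ± 0.18 under CDAHFD, and the kinase Axl by 2.42 ± 0.14 and 2.17 ± 0.11. Its ligand Gas6 rose by 2.37 ± 0.20 and 1.53 ± 0.15, and Stab1, a scavenger receptor that endothelium also carries, by 1.18 ± 0.17 and 1.31 ± 0.19. Haem and iron genes gave 5 higher and 2 lower of 8 under FPC and 6 higher and none lower under CDAHFD (medians 0.54 and 0.84). Hpgds, a prostaglandin D synthase on that list (3.50 ± 0.15 and 3.37 ± 0.20), the phagosomal metal transporter Slc11a1 (1.85 ± 0.16 and 2.52 ± 0.19) and haem oxygenase Hmox1 (0.93 ± 0.23 and 2.23 ± 0.24) rose under both diets. The biliverdin reductase Blvrb fell under FPC (-0.34 ± 0.13) and rose under CDAHFD (0.73 ± 0.12).

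Genes with the most similar pattern differed between members. Among 12867 genes with a mean of at least 1 CPM in whole liver nuclei, likeness was the Pearson r of log2(CPM + 0.5) over the 22 whole liver libraries, given as a description because the libraries share 2 studies and 3 stages. Closest to Csf1r were Itgal (0.99), Syk (0.99), Nfam1 (0.99), Naip5 (0.99) and Plekho2 (0.99), the first 2 of which encode an integrin chain and a signalling kinase of leukocytes. For Clec4f the closest were Glul (0.91), Kcnj16 (0.90), Tnfrsf11b (0.89), Zfp804b (0.89) and Slc1a2 (0.87), of which Glul and Slc1a2 encode glutamine synthetase and a glutamate transporter of pericentral hepatocytes. For Timd4 they were Ntm (0.96), Egfem1 (0.95), Slc15a5 (0.93), Immp2l (0.93) and Ttc7b (0.92). No other member was among these 5 genes for any of the 3, since members were left out of the search.

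Levels across the 6 whole liver groups can be put in order for each gene. Csf1r was highest in mild and advanced CDAHFD livers, which overlapped, then in mild and advanced FPC livers, which overlapped, and lowest in both control groups, which overlapped; no liver of one of these pairs reached the next pair. Clec4f was highest in mild FPC livers, above an overlapping middle of CDAHFD controls, mild CDAHFD livers and FPC controls, followed without overlap by advanced CDAHFD and then advanced FPC livers. For Timd4, mild FPC livers and both control groups overlapped at the top, and below them advanced FPC livers overlapped both mild and advanced CDAHFD livers, while the advanced CDAHFD livers lay wholly below the mild ones. Cd163 ran through overlapping neighbours from CDAHFD controls over FPC controls and mild FPC to mild CDAHFD livers, then without overlap to advanced CDAHFD and advanced FPC livers. Marco and Folr2 gave no pair of neighbouring groups without overlap.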

How the data were processed

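RNA of liver nuclei was profiled in 44 libraries of 22 male mice. Per the labels' protocols, RNA of the nuclei was made into stranded libraries with no poly-A enrichment step and sequenced as paired ends. The build was mm10 and the tools named were DESeq2 1.24.0 and STAR 2.4.2a, per the submitters' processing notes; the counting tool and its strand setting are not given in the sources used here. The authors deposited raw counts, whole numbers per library for 20105 RefSeq transcripts. They also deposited log2 fold changes and adjusted p-values between hepatocyte groups for 13147 genes, none of them a member, and that table served for symbols and lengths only. For 94.7% of its genes the counted length equals the gene length, so introns were counted with exons. The members' symbols came from a RefSeq gene table (GRCm38.p6). Csf1r, Adgre1, Cd163 and Folr2 overlap genes that are not in the count table, and reads of those cannot be told apart from theirs.

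From the counts, log2 fold changes were computed here with edgeR 4.0.16 (R 4.3.3, limma 3.58.1): TMM scaling, filterByExpr at its defaults, robust quasi-likelihood F-tests, p-values adjusted by Benjamini-Hochberg across every tested gene, and calls at 0.05. The standard error was taken as the size of the log2 fold change divided by the root of F. Each disease fit used the 11 libraries of 1 fraction and diet, and comparisons of fractions or diets used 22. The reported fits of fractions and of the interaction did not pair both libraries of a mouse, except where the block is named. Alternatives were DESeq2 1.42.0, other scalings, no filter, fits of both groups alone, the mouse as a block and leaving out each mouse. The labels' animal numbers tie a whole liver library to the hepatocyte library of the same mouse, and over 10106 genes their deviations from the group means correlated above 0.1 in 20 of 22 mice. Chi-square per degree of freedom between replicates was 20.0 to 272, so the spread between mice sets the precision. The edgeR step was tested on simulated counts of 1 comparison, advanced against control FPC whole liver nuclei. It recovered 65% of 100 genes changed by 1 on the log2 scale and 97% of 100 changed by 2. There were 9 false calls among the unchanged genes. The other fits were not simulated. The members, the gene lists and the rule for named genes (per list, the up to 4 genes of lowest p that passed in advanced against control whole liver nuclei of either diet) were chosen with earlier results of these data known. Of 10 scavenger genes, Msr1 had no counted transcript.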

Additional observations from a re-analysis of the deposited data

Results flagged for a closer look

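A value far from the others was found in 5 of 72 groups of 4 mice (6.94%, where chance gives about 1 in 20). In hepatocyte nuclei of CDAHFD controls, mouse CDAHFD_Control_10110 had 5.68 CPM of Clec4f and the other 3 had 1.31 to 1.98 CPM. The same mouse had 3.85 CPM of Marco in whole liver nuclei, against 0.358 to 0.862 CPM in the other 3 controls. In hepatocyte nuclei of mild FPC mice, mouse FPC_Mild_6825 had 49.3 CPM of Adgre1 and the others 17.0 to 22.3 CPM. Mouse FPC_Control_6953 had 4.55 CPM of Cd5l in hepatocyte nuclei, and the other FPC controls had 2.52 to 2.86 CPM. In whole liver nuclei of mild CDAHFD mice, Folr2 was at 1.11 CPM in mouse CDAHFD_Mild_9852 and at 1.78 to 1.84 CPM in the others.

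The difference between hepatocyte and whole liver nuclei changed with advanced CDAHFD disease for Vsig4 (interaction 1.43 on the log2 scale), Csf1r (1.21) and Adgre1 (1.15). Mild disease changed Timd4 (-2.64) and Cd163 (-1.41) differently under CDAHFD than under FPC.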

How the results depend on the processing

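The count of members called stayed within 1.5 times of the reported one under every alternative in all but 4 of the 20 comparisons. Another scaling by size factors and dropping the expression filter changed no member's call. For advanced against mild CDAHFD livers, leaving out 1 mouse gave 1 to 2 members. For the interaction of fraction and disease in advanced FPC mice, DESeq2, the replicate block and unscaled library totals gave 1 member each, and leaving out 1 mouse gave 0 to 1. For the diet difference of the members, DESeq2 gave 1 at the advanced and 4 at the mild stage, and leaving out 1 mouse gave 0 to 2 and 1 to 4. With the mouse as a replicate block, all 9 members were lower in hepatocyte nuclei in each of the 3 FPC groups, and beside the interaction above no other count of members changed. Over all genes the fits with the replicate block called 5767 against 2512 in FPC controls, 7223 against 3759 in mild and 6421 against 3226 in advanced FPC mice, and 1355 against 547 and 2572 against 1466 for the interactions under FPC and CDAHFD, and without the block the last interaction gave 885 genes without CDAHFD_Advanced_10104 and 869 without CDAHFD_Advanced_9896. The pairing of CDAHFD_Control_9862 and CDAHFD_Control_9867 was also exchanged, with the mouse as a block. This gave 8151 genes in CDAHFD controls and 4243 for the CDAHFD interaction, with 9 and 3 members called as before. For that interaction the block with the labelled pairing gave 2572 genes. The 4444 genes reported for CDAHFD controls are from a fit without the block, so block and exchange cannot be told apart there. In that control group size-factor scaling gave 2772 (340 higher and 2432 lower, against 2092 and 2352) and unscaled totals 2656 genes (98 and 2558). Advanced against mild CDAHFD livers gave 717 genes with DESeq2 and 483 with both groups alone, against 265, and 66 to 138 without 1 mouse, except without CDAHFD_Mild_9894. Advanced against mild FPC livers gave 1956 against 3150 genes without FPC_Advanced_6880. The diet difference gave 1083 against 673 genes with DESeq2 at the advanced stage (446 without FPC_Advanced_6904, 398 without CDAHFD_Advanced_9845) and 1128 against 722 at the mild stage (423 to 478 without FPC_Control_6816, FPC_Mild_6887 or CDAHFD_Mild_9894).

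Unscaled library totals, chosen after seeing the data, put the median log2 change of all genes over control at 0.28 to 0.49, against -0.01 to 0.04 as reported. In whole liver nuclei the split of calls became 7271 higher and 1532 lower (reported 4428 and 3954) in advanced and 5747 and 921 (3530 and 2576) in mild FPC, 7330 and 1506 (4194 and 3653) in advanced and 6578 and 1260 (3901 and 3459) in mild CDAHFD livers. In hepatocyte nuclei it became 6035 and 1079 (3577 and 2759) in advanced and 4300 and 601 (2948 and 1519) in mild FPC, 6592 and 1633 (4028 and 3875) in advanced and 5961 and 1742 (3928 and 3551) in mild CDAHFD mice. Advanced against mild livers gave 2636 and 670 (1881 and 1269) under FPC and 156 and 89 (117 and 148) under CDAHFD. They reversed the members Folr2 in advanced FPC (0.14) and CDAHFD livers (0.11), Cd163 (0.069) and Marco (0.055) in mild FPC livers, Clec4f in mild CDAHFD livers (0.22), Marco in advanced against mild CDAHFD livers (0.015) and Cd5l in hepatocyte nuclei of advanced FPC mice (0.29), none of them called in the reported fit.

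Leaving out 1 mouse turned the sign of these uncalled values: in whole liver nuclei Cd5l (-0.094 to 0.19) and Marco (-1.11 to 0.31) in advanced FPC, Cd163 (-0.59 to 0.030), Marco (-0.83 to 0.72) and Timd4 (-0.10 to 0.63) in mild FPC, Marco in advanced against mild FPC (-0.90 to 0.19), and Adgre1 (-0.38 to 0.0079) and Marco (-0.46 to 0.13) in advanced against mild CDAHFD livers. In hepatocyte nuclei these were Cd5l (-0.40 to 0.12), Marco (-0.96 to 0.53) and Vsig4 (-0.77 to 0.40) in advanced FPC mice and Clec4f in advanced CDAHFD mice (-0.19 to 0.68), and the interaction of Cd163 in FPC mice (-0.56 to 1.22). The cause was not tested. With 3 or 4 mice a group, differences within the spread of the members cannot be read as absent. Folr2, and Cd163 in whole liver and hepatocyte nuclei of advanced mice, rest on few counts.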
